A study of Schizosaccharomyces pombe with 4 samples.

Results

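The core histone genes of the fission yeast Schizosaccharomyces pombe were examined as a group of 10 genes, taken by name from a table of 6807 genes. They are hta1 and hta2 (histone H2A), htb1 (H2B), hht1, hht2 and hht3 (H3), hhf1, hhf2 and hhf3 (H4) and pht1 (the variant H2A.Z). Total RNA depleted of rRNA was sequenced from 2 strains of mating type h-, with 2 libraries each. Wild type carried ura4-D18 leu1-32, and the eif3e deletion carried int6::kanMX6 on top of the same ura4-D18 leu1-32, so both marker mutations are shared by the control. int6 encodes subunit e of translation initiation factor eIF3, and kanMX6 is the drug resistance cassette that replaced it. Both strains grew in rich yeast extract medium (YES) to an optical density of 0.8 to 1.0. Separate cultures or clones for the 2 replicates of a strain are not recorded in the labels, so the p-values cover only the spread between these libraries, which may be technical. The comparison described here is that of histone transcripts between the strains.

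Core histones form the octamer around which DNA is wrapped, built from pairs of H2A, H2B, H3 and H4. Many of their genes are transcribed mainly in S phase, when new chromosomes need new nucleosomes, though not every copy need follow it. H2A.Z replaces H2A at selected nucleosomes, often beside promoters, where the SWR1 complex deposits it. In fission yeast each H3 gene lies head to head with an H4 gene, and hta1 lies head to head with htb1. By RefSeq's annotation both genes of a pair start from 1 intergenic region. By the positions of the table used here, some pairs overlap by a few bases, as given further on. hta2 and pht1 stand alone.

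The start regions of the H3 and H4 pairs and of hta2 carry a shared element. Histone genes of fission yeast are known for an AACCCT box, to which the GATA-type factor Ams2 and the telobox factor Teb1 have been linked. The following 30-base windows were read from RefSeq's ASM294v3 assembly and are shown because they are what these 4 start regions have in common. The capitals mark AACCCTAACCCT, a tandem of that box, and every window is written in the direction in which the box reads AACCCT.
hht1 and hhf1, chr1:4699643-4699672, plus strand: ctgcatcaaAACCCTAACCCTgcttttgat
hht2 and hhf2, chr2:1365051-1365080, minus strand: gtcaatcacAACCCTAACCCTgatttaaga
hht3 and hhf3, chr2:3529618-3529647, plus strand: tttgatcacAACCCTAACCCTttaattaaa
hta2, chr1:4053362-4053391, minus strand: atccatcaaAACCCTAACCCTgtatattgc

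The windows of the 3 pairs lie between the RefSeq starts of their genes, and that of hta2 lies within the 250 bases before its RefSeq start. By the table's positions, whose 5′ ends differ, only the window of hht1 and hhf1 lies outside both genes. There the other windows lie inside the transcripts of hht2, hht3 and hta2. Searched on both strands, AACCCT occurred in 8.29% of the 250-base windows before 5112 protein-coding genes, and the tandem AACCCTAACCCT, each copy of which holds AACCCT 2 times, in 0.391% of them. The tandem was found before 20 genes, among them the H3 and H4 genes and hta2. The 11 that are not histone genes are described further on. The longer string ATCANAACCCTAACCCT, chosen after windows of histone genes had been compared, was found before 10 genes, among them the H3 and H4 genes, hta2 and bdf2, a bromodomain protein gene. Neither AACCCT nor the tandem occurred in the 250 bases before pht1. A match describes the letters in these windows and does not show that a factor binds there.

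The copies encode the same or nearly the same protein with different codons. By translation of RefSeq's reading frames, the 3 H3 genes encode identical proteins of 136 residues, and the 3 H4 genes identical proteins of 103 residues. The H3 reading frames were 88.3% to 92.7% identical at the DNA level and the H4 reading frames 91.3% to 93.3%. hta1 and hta2 were 86.5% identical, encoding proteins of 132 and 131 residues. pht1 was far from both, at 55.5% identity to hta1 and 58.6% to hta2. The first 90 bases of the reading frames are shown because the assignment of reads to a copy rests on such differences. The capitals mark positions at which the copies of that histone do not all carry the same base.
hht1, chr1:4699829-4699918, plus strand: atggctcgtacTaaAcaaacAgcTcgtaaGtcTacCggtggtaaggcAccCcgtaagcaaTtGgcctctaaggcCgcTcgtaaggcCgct
hht2, chr2:1365158-1365247, plus strand: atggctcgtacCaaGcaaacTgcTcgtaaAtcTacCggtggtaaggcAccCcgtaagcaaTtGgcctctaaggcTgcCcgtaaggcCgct
hht3, chr2:3529440-3529529, minus strand: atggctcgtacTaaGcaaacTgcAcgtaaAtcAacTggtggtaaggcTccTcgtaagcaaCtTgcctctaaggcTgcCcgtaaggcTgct
hhf1, chr1:4699307-4699396, minus strand: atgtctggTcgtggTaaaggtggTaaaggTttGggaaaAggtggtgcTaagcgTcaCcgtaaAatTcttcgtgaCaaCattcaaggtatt
hhf2, chr2:1364734-1364823, minus strand: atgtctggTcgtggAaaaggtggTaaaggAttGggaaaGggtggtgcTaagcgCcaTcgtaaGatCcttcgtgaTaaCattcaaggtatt
hhf3, chr2:3529767-3529856, plus strand: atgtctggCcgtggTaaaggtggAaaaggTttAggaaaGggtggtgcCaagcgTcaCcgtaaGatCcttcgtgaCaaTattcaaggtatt
hta1, chr3:1411833-1411922, minus strand: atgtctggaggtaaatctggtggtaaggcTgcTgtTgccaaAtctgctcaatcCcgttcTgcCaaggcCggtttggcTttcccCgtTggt
hta2, chr1:4053158-4053247, minus strand: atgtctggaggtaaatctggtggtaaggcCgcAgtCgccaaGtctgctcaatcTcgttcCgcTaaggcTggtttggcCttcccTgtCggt

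In these 90 bases, 14 positions differed among the H3 copies, 13 among the H4 copies and 11 between the H2A genes. The longest stretch that was identical between the transcripts of any H3 copies was 47 bases, against 55 bases for H4 and 41 bases for hta1 and hta2. How reads that match several places were treated is unknown from the labels. The split of reads among copies is uncertain to that extent.

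The libraries held 9926548 to 28254322 reads on features, of which 10.3% to 17.4% lay on protein-coding genes. In both strains replicate 1 was the deeper library. The deleted gene int6 stood at 21.8 and 22.9 CPM in the wild-type pair and at 0.0285 and 0.842 CPM in the deletion pair. CPM (counts scaled to a common library size) are given after TMM normalization, a scaling that assumes most genes to be equal between libraries. All 10 histone genes were among the 5915 features that passed the filter on low counts, and their 61 to 3418 reads per library set the counting precision. Of all protein-coding reads, the 9 core genes took 0.374% and 0.287% in the wild-type pair and 0.324% and 0.234% in the deletion pair, replicate 1 first.

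No histone gene passed the test for a strain difference. By edgeR's quasi-likelihood test, 0 of 10 were higher and 0 of 10 lower at an adjusted p under 0.05. Over all 5915 features the same rule called 0.0169% higher and 0.0% lower, so the members' count of 0 is what the background gives. Even the deleted gene int6, with a log2 change of −6.23, was not called by this rule (edgeR adjusted p = 0.111). At an unadjusted p under 0.05 edgeR gave 0 of the 10 genes, against 10.1% of all features. DESeq2 and limma-voom also gave 0 of the 10 at the unadjusted and at the adjusted level. Of the 5915 features, DESeq2 gave 530 at an unadjusted p under 0.05, and limma-voom 321 higher and 486 lower. At an adjusted p under 0.05 DESeq2 called 1.52% of all features and limma-voom called 1 feature. The log2 change was negative for 7 of 10 genes, against 49.9% of all features, and the median was −0.28 against 0.00 for all features. Of the 4785 protein-coding features tested, which include all 10 genes, it was negative for 2247, and their median was 0.04. An unadjusted edgeR p under 0.05 was found for 403 of these features. Both deletion libraries lay below both wild-type libraries for 3 genes (21.4% of all features) and above them for 0 (20.1%). The adjusted p of the 10 genes ran from 0.628 to 0.939. A p above the threshold does not show that the strains are alike. The intervals given below show the range of differences under this fit. Like the p-values, they cover only the spread between these libraries.

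**Figure D1:**
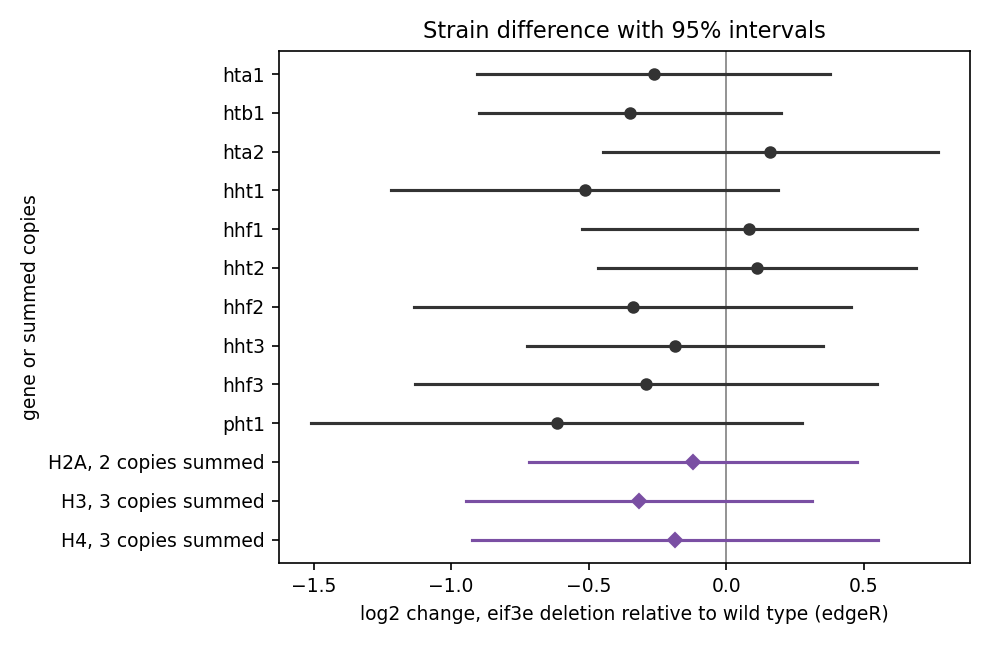
Log2 change of each histone gene in the eif3e deletion relative to wild type, fitted by edgeR (points), with 95% intervals (lines). The diamonds give the same for H2A, H3 and H4 with their copies summed before the fit. Every interval spans 0, and the widest is that of pht1.

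hht1 held more H3 reads than either other copy and had the smallest p of the 10 genes. This gene (SPAC1834.04, chromosome 1, positions 4699691 to 4700560 in the table) measured 116 and 86.9 CPM in wild-type replicates 1 and 2, and 84.4 and 57.2 CPM in deletion replicates 1 and 2. Both deletion libraries were thus below both wild-type libraries, by a small margin between wild-type replicate 2 and deletion replicate 1. The means were 101 ± 20.3 CPM and 70.8 ± 19.2 CPM (SD, n = 2). The log2 change was −0.52 with a standard error of 0.30, a 95% interval of −1.22 to 0.19 and an edgeR adjusted p of 0.628. It ran from −0.82 without deletion replicate 1 to −0.30 without wild-type replicate 1 and −0.26 without deletion replicate 2.

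The other H3 genes were lower and closer together. hht2 (SPBC8D2.04, chromosome 2, positions 1365041 to 1365818) measured 30.2 and 27.9 CPM in the wild-type pair and 28.1 and 34.8 CPM in the deletion pair. The groups overlapped, with the highest value in deletion replicate 2. hht3 (SPBC1105.11c, chromosome 2, positions 3528800 to 3529657) measured 30.7 and 30.5 CPM in the wild-type pair and 27.0 and 26.8 CPM in the deletion pair, the closest replicate agreement of the 10 genes. Both deletion libraries were lower here. The closeness of 2 values does not measure precision, and the fit, which shares its spread with other genes, gave hht3 a log2 change of −0.19 with a 95% interval of −0.73 to 0.35. For hht2 the log2 change was 0.11 with an interval of −0.46 to 0.69, and the edgeR adjusted p was 0.838 for hht3 and 0.918 for hht2.

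Among the H4 genes, hhf3 had the highest level per kilobase of transcript on average. hhf3 (SPBC1105.12, chromosome 2, positions 3529657 to 3530388) measured 124 and 71.9 CPM in wild-type replicates 1 and 2, and 97.4 and 62.9 CPM in deletion replicates 1 and 2. In each strain replicate 1 was the higher library, by 0.79 and 0.63 on the log2 scale. The strain difference was −0.29 with an interval of −1.13 to 0.55, smaller than either gap between replicates. hhf1 (SPAC1834.03c, chromosome 1, positions 4698773 to 4699544) measured 50.3 and 60.4 CPM in the wild-type pair and 65.5 and 51.5 CPM in the deletion pair, with overlapping groups and a log2 change of 0.08 (interval −0.52 to 0.69). hhf2 (SPBC8D2.03c, chromosome 2, positions 1364189 to 1365043) measured 58.9 and 31.0 CPM in the wild-type pair and 37.6 and 33.6 CPM in the deletion pair. Here wild-type replicate 1 stood well above the 3 other libraries. The log2 change of hhf2 was −0.34 (interval −1.13 to 0.45). Without wild-type replicate 1 it was 0.20, and that of hhf3 was 0.15, so both signs turned in that fit. Between the libraries numbered 2, the deletion was higher than wild type for hhf2 and lower for hhf3.

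Among the genes of H2A and H2B, only htb1 had both deletion libraries below both wild-type libraries. hta1 (SPCC622.08c, chromosome 3, positions 1411144 to 1412214) measured 38.7 and 39.8 CPM in the wild-type pair and 38.8 and 26.4 CPM in the deletion pair. Only deletion replicate 2 stood apart, and the log2 change was −0.26 (interval −0.91 to 0.38). Without deletion replicate 2 it was −0.01. Its partner htb1 (SPCC622.09, chromosome 3, positions 1412387 to 1413677), the single H2B gene, measured 29.4 and 33.0 CPM in the wild-type pair and 24.8 and 24.1 CPM in the deletion pair. Its groups did not overlap, with a log2 change of −0.35, a standard error of 0.23 and an interval of −0.90 to 0.20. hta2 (SPAC19G12.06c, chromosome 1, positions 4052446 to 4053397) measured 15.5 and 19.8 CPM in the wild-type pair and 20.1 and 19.2 CPM in the deletion pair, with overlapping groups and a log2 change of 0.16 (interval −0.45 to 0.77). The edgeR adjusted p was 0.801 for hta1, 0.675 for htb1 and 0.879 for hta2.

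pht1 had the lowest level and the most negative log2 change. This gene for H2A.Z (SPBC11B10.10c, chromosome 2, positions 1502203 to 1503468) was covered by 307 and 61 reads in the wild-type pair and by 208 and 91 in the deletion pair, replicate 1 first. That gave 13.3 and 7.19 CPM in the wild-type pair and 5.93 and 7.66 CPM in the deletion pair. Wild-type replicate 1 stood above the 3 other libraries, and wild-type replicate 2 lay between the deletion libraries. The log2 change was −0.62 with a standard error of 0.38, an interval of −1.51 to 0.28 and an edgeR adjusted p of 0.649. Without wild-type replicate 1 it was −0.09.

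Levels of different genes were compared per kilobase of the table's transcript length.

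**Figure D2:**
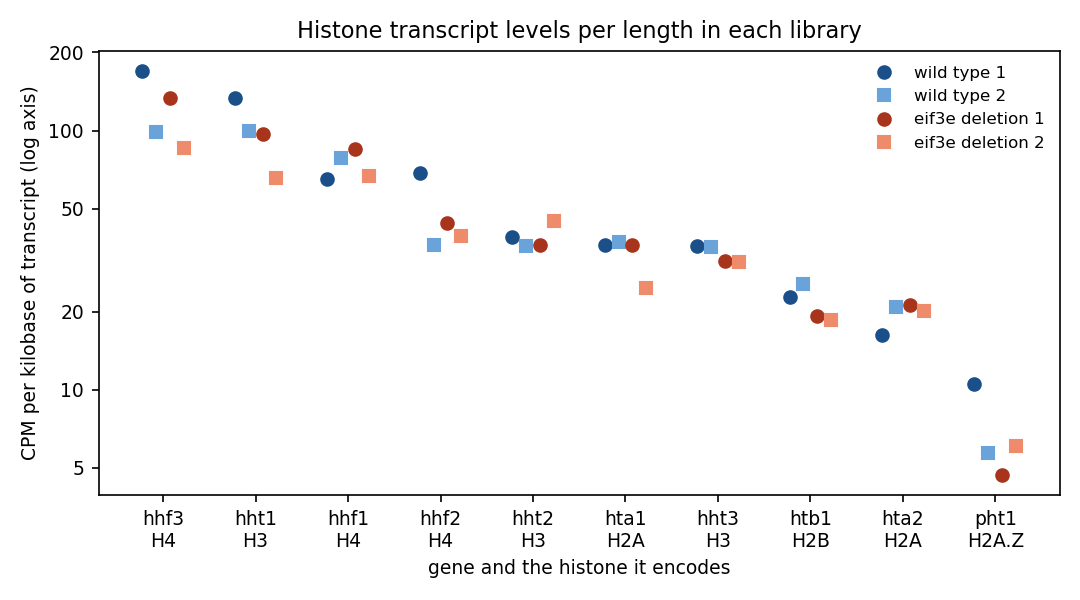
Level of each histone gene in CPM per kilobase of transcript (log axis), 1 point per library, with genes ordered by their mean over the 4 libraries. hhf3 and hht1 were highest, at 122 and 98.9 CPM per kilobase on average, and pht1 was lowest at 6.73.

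Over the 4 libraries hhf3 averaged 122 ± 37.7 CPM per kilobase, hht1 98.9 ± 27.4 and hhf1 73.7 ± 9.43 (SD, n = 4). These 3 genes stood above the 95th percentile of the 4785 protein-coding genes tested, at percentiles 97.5, 96.8 and 95.4. hhf2, hht2, hta1 and hht3 followed at 47.1 ± 14.8, 38.9 ± 4.14, 33.5 ± 5.93 and 33.5 ± 2.52 CPM per kilobase. htb1 and hta2 stood at 21.5 ± 3.24 and 19.6 ± 2.23, and pht1 at 6.73 ± 2.57, the 60.9th percentile. Neighbours in this order overlapped in their ranges over the libraries, except that hht3 lay above htb1 and hta2 above pht1 in all 4 libraries. All 10 genes share their 3′ end with RefSeq's gene and differ from it at the 5′ end, so the lengths, and with them these levels, carry an error that the SD does not hold.

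The most abundant H3 gene and the most abundant H4 gene were not partners. hht1 took 65.5% of H3 reads in wild-type replicate 1 (95% Wilson interval 64.0% to 67.0%), 59.8% in wild-type replicate 2 (57.0% to 62.5%), 60.5% in deletion replicate 1 (59.1% to 61.9%) and 48.2% in deletion replicate 2 (45.6% to 50.8%). hhf3 took 53.2% of H4 reads in wild-type replicate 1 (51.9% to 54.6%), 44.0% in wild-type replicate 2 (41.4% to 46.7%), 48.6% in deletion replicate 1 (47.4% to 49.7%) and 42.5% in deletion replicate 2 (40.2% to 44.8%). hta1 took 71.3%, 66.8%, 65.8% and 57.9% of H2A reads in the same order of libraries. Each of these genes was the leading copy in all 4 libraries. The intervals cover counting error only, and the libraries of 1 strain differed by more than that, so shares were compared over libraries.

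**Figure D3:**
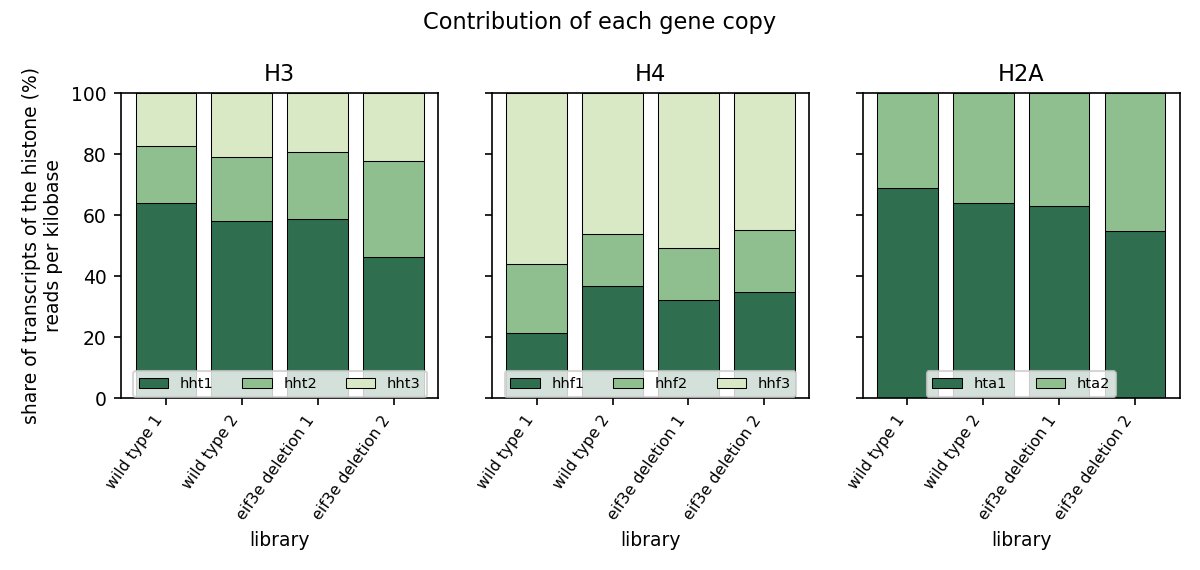
Share of each copy among the transcripts of H3, H4 and H2A in each library, from reads per kilobase of transcript, in percent. hht1, hhf3 and hta1 were the leading copies in all 4 libraries, and deletion replicate 2 had the lowest shares of hht1 and hta1.

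Per kilobase, hht1 made up 61.2% ± 4.09 of H3 in wild type and 52.7% ± 8.86 in the deletion (SD, n = 2), and the groups overlapped. hht2 made up 18.7% and 21.0% in wild type and 21.9% and 31.6% in the deletion, higher in both deletion libraries by a mean of 6.94 percentage points. hta2 made up 31.1% and 35.9% of H2A in wild type and 36.9% and 45.0% in the deletion, again higher in both, by 7.42 points. For both the two-sided exact permutation p was 0.33, which is the smallest that 2 libraries against 2 can give. Most of either difference came from deletion replicate 2. The shares of the H4 copies overlapped between strains, with hhf3 at 51.0% ± 6.85 and 47.8% ± 4.27, hhf1 at 29.1% ± 10.8 and 33.6% ± 1.68, and hhf2 at 19.9% ± 3.97 and 18.6% ± 2.60.

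The head-to-head pairs differed in how evenly their genes were represented.

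**Figure D4:**
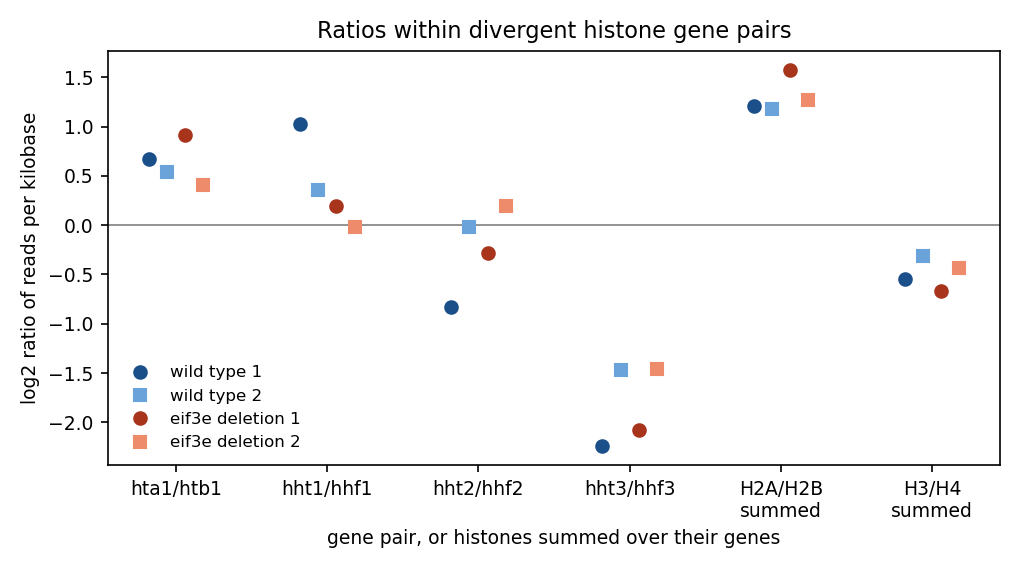
Log2 ratio of reads per kilobase between the genes of each head-to-head pair, and between H2A and H2B and between H3 and H4 after summing their genes, 1 point per library. The ratio of hht3 to hhf3 lies from −2.25 to −1.46 in the 4 libraries, and that of hta1 to htb1 from 0.40 to 0.91.

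hht3 stood below its partner hhf3 in all 4 libraries, with log2 ratios of −2.25 and −1.46 in wild type and −2.08 and −1.46 in the deletion. hta1 stood above htb1 in all 4, at 0.67 and 0.54 in wild type and 0.91 and 0.40 in the deletion. The pair hht2 and hhf2 showed no common direction, at −0.83 and −0.01 in wild type and −0.28 and 0.19 in the deletion. For hht1 over hhf1 the log2 ratio was 1.03 and 0.35 in wild type and 0.19 and −0.02 in the deletion, lower in both deletion libraries. That difference of −0.60 in the log2 ratio had an exact permutation p of 0.33, again the smallest possible. The wild-type replicates alone were 0.68 apart. Of the 7 ratios compared, the summed ratio of H2A to H2B was also outside the wild-type range in both deletion libraries, at 1.20 and 1.18 against 1.58 and 1.27 (exact permutation p = 0.33). The summed ratio of H3 to H4 was −0.43 ± 0.17 and −0.55 ± 0.17 (SD, n = 2). Over the 15 shares and ratios, which are not independent of each other, the smallest exact permutation p after Benjamini-Hochberg adjustment was 0.769.

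Summing the copies did not bring a histone past the threshold. The 3 H3 genes together reached 161 ± 22.1 CPM (SD, n = 2) without the deletion and 129 ± 14.6 CPM with it, below wild type in both deletion libraries. Their log2 change was −0.32 with an interval of −0.95 to 0.31 and an edgeR adjusted p of 0.753. Without wild-type replicate 1 it was −0.17, and without deletion replicate 2 it was −0.20. The 3 H4 genes measured 198 ± 49.6 and 174 ± 37.2 CPM, and the 2 H2A genes 56.9 ± 3.86 and 52.3 ± 9.39 CPM, with adjusted p of 0.886 and 0.913. The 9 core genes summed to 494 and 401 CPM in the wild-type pair and 424 and 337 CPM in the deletion pair, and the groups overlapped (exact permutation p = 0.667). The libraries with the same replicate number also share a title prefix across the strains, whose meaning the labels do not give. Within these same-title pairs the sum was lower in the deletion both times, with log2 differences of −0.22 for replicate 1 and −0.25 for replicate 2. Of the 10 genes, 4 (hht1, hht3, hhf3 and htb1) were lower in the deletion within both pairs, against 31.7% of all features, and 0 were higher within both, against 30.2%. hht1 differed by −0.45 and −0.60 within the pairs and hhf3 by −0.35 and −0.19, and the log2 ratio of summed H3 to H4 by −0.12 and −0.13. These within-pair values were added after the data had been seen and carry no test. In bulk RNA, fewer cells in S phase and less histone RNA per cell cannot be told apart.

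Replicate 1 exceeded replicate 2 in both strains for some of the genes. This held for hht1, by 0.41 in wild type and 0.56 in the deletion on the log2 scale, and for hhf2, by 0.92 and 0.16, beside hhf3 above. The opposite order in wild type was seen for hta1, htb1, hta2 and hhf1, at −0.04, −0.17, −0.35 and −0.26. Over all features the median difference between replicates was 0.01 in wild type and 0.00 in the deletion. Depth, the share of protein-coding reads and the TMM factors (1.32 and 1.24 against 0.855 and 0.712) were higher in replicate 1 of each strain as well, and their part in these gaps was not tested.

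Several histone genes overlap other features of the table. SPNCRNA.1194 covers all 1071 bases of hta1 on the opposite strand and had 1 to 58 reads, and SPNCRNA.1611 covers all 732 bases of hhf3 on the opposite strand with 1 to 44 reads. Both non-coding RNAs held far fewer reads than the histone gene in each library. SPNCRNA.1611 also shares 59 bases with hht3 on the same strand, and SPNCRNA.1432 shares 79 with hhf2. hhf2 and hht2 overlap by 3 bases, hhf3 and hht3 by 1, and htb1 overlaps the exocyst gene sec5 by 258 bases on the opposite strand. No label says whether the counting used strand, so reads from either strand cannot be told apart. The deposited junction RPKM and incompatible RPKM were 0 for all 10 genes.

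The genes that act on histones showed no call either, by edgeR or by DESeq2, in any of the lists that follow. Of 6 genes for the factors Ams2 and Teb1 and for the HIRA chaperone, which represses histone genes outside S phase, 0 passed in either direction. At an unadjusted p under 0.05 edgeR gave 1, against 10.1% of all features. The median log2 change of the 6 was 0.39 against 0.00 for all features. ams2 measured 4.20 and 6.72 CPM in the wild-type pair and 3.14 and 2.69 CPM in the deletion pair, a log2 change of −0.88 (edgeR adjusted p = 0.524). hip3, a HIRA complex gene, measured 3.46 and 3.18 CPM in the wild-type pair and 7.98 and 5.56 CPM in the deletion pair, a log2 change of 1.03 (edgeR adjusted p = 0.409). The groups did not overlap for either gene, as for 41.5% of all features, and both were named for their small p. hip1, the most abundant of the 6, had a log2 change of −0.17.

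Histone chaperone genes, 12 in number, had 0 calls in either direction and a median log2 change of 0.06. At an unadjusted p under 0.05 there was 1, against 10.1% of all features. The nucleosome assembly genes nap1 and nap2 had log2 changes of 0.41 and 0.31, and ani1 (also known as fkbp39), a gene of an FKBP-type prolyl isomerase, had −0.89. The abundant FACT subunit gene pob3 had 0.08. Of 14 genes of the SWR1 complex, which inserts H2A.Z, 0 passed and the median was −0.06. Of its members, arp6 was at 0 to 1.43 CPM, bdf1 had a log2 change of −0.47 and swc5 one of 0.48, and act1, which is actin and not particular to the complex, had 0.38. CENP-A, the centromeric H3 variant, and its loaders, together with other centromere proteins, gave 0 calls in 12 genes. Here too 1 had an unadjusted p under 0.05, against 10.1% of all features. The median of the 12 was −0.0047, with the centromere protein gene cnp3 at −0.72. Among 22 histone modifying enzymes 0 passed, the median was −0.12, and the deacetylase gene hos2 stood at −0.69 and the acetyltransferase gene gcn5 at −0.01.

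Cell cycle genes were measured beside the histones, since many histone transcripts follow S phase. Of 31 genes of MBF, the G1 to S transcription factor complex, and of DNA replication, 0 passed in either direction. At an unadjusted p under 0.05 there were 5, against 10.1% of all features. The log2 change was negative for 18, against 49.9% of all features, and the median of the 31 genes was −0.11. Their summed level was 356 and 371 CPM in the wild-type pair and 367 and 348 CPM in the deletion pair, with overlapping groups. mcm2, a subunit gene of the replicative helicase, measured 3.03 and 2.48 CPM in the wild-type pair and 6.64 and 5.56 CPM in the deletion pair, whereas cdm1, a DNA polymerase delta subunit gene, measured 5.62 and 11.6 CPM and then 2.39 and 2.44 CPM. Neither passed, with edgeR adjusted p of 0.377 and 0.270. Of 23 genes of mitosis and cell separation 0 passed. The log2 change was negative for 15, against 49.9% of all features, and the median of the 23 genes was −0.34. Their summed level was 340 and 377 CPM in the wild-type pair and 310.0 and 310.8 CPM in the deletion pair, without overlap. Of single features, 41.5% had groups without overlap. The part of this summed level in the histone values was not tested.

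The 11 genes outside the histones with the tandem AACCCTAACCCT in their 250-base window also gave 0 calls in either direction (1 at an unadjusted p under 0.05). Of all features, 10.1% had an unadjusted p under 0.05. The log2 changes of the 11 genes ran from −0.89 for SPAC27E2.11c to 0.30 for spi1, the gene of the Ran GTPase, with a median of −0.08. The chaperone genes ssa1, ssa2 and hsp90 had log2 changes of −0.08, 0.08 and 0.12, and bdf2, which alone of these shares the longer string, had 0.12. tbp1, encoding the TATA-binding protein, measured 56.4 and 52.3 CPM in the wild-type pair and 37.9 and 35.2 CPM in the deletion pair, a log2 change of −0.57 with an edgeR adjusted p of 0.479. The translation factor genes eft201 and tif51 had −0.10 and −0.21.

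The mean profile of the 9 core genes, each centred on its own mean log2 CPM, was 0.16 and 0.01 in wild-type replicates 1 and 2 and 0.03 and −0.20 in deletion replicates 1 and 2. Among the 10 members, hht3 lay closest to it, at a root mean square difference of 0.0936 on the log2 scale, and pht1 farthest, at 0.375. The mean holds each of the 9 core genes but not pht1, which also had the fewest reads, so this order is partly built in. Of 2345 protein-coding genes at 8.51 CPM or more that were not members, upf2, pta1, cyp7, eri1 and SPAC20G8.02 had the smallest differences, from 0.0242 to 0.0302. The median over those genes was 0.283. A profile over 4 libraries can be matched by many genes, and the members themselves lay farther from their mean than these did.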

How the data were processed

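Per the labels' protocols, rRNA-depleted total RNA was fragmented with RNase III and sequenced on a SOLiD 4 instrument. Partek 6.0, TopHat 1.4.1, Bowtie 1.1.0 and SAMtools are listed, with no role, per the submitters' processing notes. No label or header names a genome build. Of 6636 features matched by ID to RefSeq ASM294v3, 6589 shared at least 1 end with RefSeq's gene, but only 1790 shared both. Positions printed with gene IDs are the table's, whose stop column was reduced by 1 base to give the end, and sequences were read with RefSeq's own annotation. The start region of hta1 and htb1 is not reported here.

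The authors deposited estimated counts of reads per feature, 89.6% to 91.9% of which were whole within 1e-06, and RPKM, junction RPKM and incompatible RPKM, per the file headers. Transcript length in bases, a chi-square score and a p-value per feature were deposited too, and the score and the p-value are not used here.

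Estimated counts were rounded. The main test was edgeR 4.0.16 (R 4.3.3) with TMM, filterByExpr and the quasi-likelihood F test, strain as the only term, two-sided, with Benjamini-Hochberg adjustment over 5915 features and a threshold of 0.05. Intervals are 95%. For shares and ratios the test was an exact permutation over libraries, two-sided. DESeq2 1.42.0, limma 3.58.1 with voom, other scalings, no filter, RPKM on the log2(RPKM + 1) and log2(RPKM + 0.1) scales, each library left out, a replicate block and summed copies were alternatives. The edgeR step was run on simulated data with the same spread for all genes. The planted changes were larger than any found for the histone genes, so this run does not cover changes as small as theirs. Python 3.11.15, pandas 2.3.3, scipy 1.17.1, Biopython 1.88 and matplotlib 3.10.9 served for the rest. The members, gene lists and tests were chosen with earlier results of these data known. All members are named. From each list the rule takes the 3 genes with the smallest p and the most abundant one, and then the 5 genes closest in profile, and some of these are given only within their list's counts.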

Additional observations from a re-analysis of the deposited data

How the results depend on the processing

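None of the 10 genes passed under any of the 12 alternatives to the main fit, at adjusted p of 0.214 to 1.00, and the counts of 0 higher and 0 lower held there and with copies summed. The signs of hht1, hht3, hta1, htb1 and pht1 and of summed H3 held in all 12, with single libraries left out at −0.82 to −0.26 for hht1, −0.57 to −0.012 for hta1, −0.97 to −0.093 for pht1 and −0.45 to −0.17 for summed H3. The deposited RPKM scale moved the median of all features to −0.12 (+ 1) and −0.17 (+ 0.1). On it the log2 changes were −0.0072 and −0.010 for hta2, −0.10 and −0.10 for hhf1 and −0.066 and −0.067 for hht2, all above that median. With single libraries left out, log2 changes ran from −0.014 to 0.34 for hta2, −0.10 to 0.25 for hhf1, −0.043 to 0.26 for hht2, −0.72 to 0.20 for hhf2, −0.64 to 0.15 for hhf3, −0.32 to 0.055 for summed H2A and −0.42 to 0.090 for summed H4. A lone library is then assumed to vary like the other strain's. The cause was not tested. Leaving out single libraries also turned the sign of the difference in some shares and ratios. It ran from −3.17 to 12.1 percentage points for the share of hhf1, −4.04 to 1.58 for hhf2, −8.09 to 1.59 for hhf3 and −0.21 to 3.31 for hht3. For the log2 ratios it ran from −0.20 to 0.31 for hta1 over htb1, −0.034 to 0.78 for hht2 over hhf2, −0.31 to 0.47 for hht3 over hhf3 and −0.93 to 0.10 for pht1 over H2A.

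Same-numbered libraries share a title prefix that the labels do not explain, and the correlation between the strains' replicate differences was 0.238, so the block is given here as a hint and not as the design. With the replicate block hht1 stood at −0.53 (edgeR adjusted p = 0.214). There 0 histone genes were called, and 193 features in all, against 1 without it. At an unadjusted p under 0.05 the block gave 1 of the 10 histone genes, beside 444 features higher and 523 lower of 5915. Over all features, DESeq2 called 90, edgeR without the filter 20, limma on RPKM 46 and 69, and edgeR with a library left out 0 to 242. Low depth limits pht1 most, at 61 reads in wild-type replicate 2.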
